A study of Homo sapiens with 6 samples.

Results

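The genes described here are the 10 erasers and direct readers of N6-methyladenosine (m6A) in Kelly cells: the demethylases FTO and ALKBH5, the YTH-domain readers YTHDF1, YTHDF2, YTHDF3, YTHDC1 and YTHDC2, and the readers IGF2BP1, IGF2BP2 and IGF2BP3. They were chosen by gene symbol, and all 10 were found among the 19923 protein-coding genes of the count tables and passed the filter on low counts. Kelly cells are an established line from a human neuroblastoma, MYCN-amplified and of wild-type genotype per the labels. The cells received either a control siRNA (siControl, 3 libraries) or an siRNA against METTL3 (siMETTL3, 3 libraries) by lipid transfection, and poly(A) RNA was sequenced 72 hours later. A transient siRNA lowers its target without removing it, and the labels do not say whether the 3 libraries of a group came from separate cultures. The p-values therefore measure the spread between these libraries, which may be technical.

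As background, m6A is a methyl mark on adenosines of mRNA. It is written in the nucleus by a complex whose catalytic subunit is METTL3, it can be removed by the dioxygenases FTO and ALKBH5, and its effect on an mRNA passes through the proteins that bind it. YTHDF proteins bind marked mRNA in the cytoplasm and are linked to decay and translation, YTHDC1 binds it in the nucleus and is linked to splicing and export, and YTHDC2 is an RNA helicase with a YTH domain, best known from meiosis. IGF2BP proteins are oncofetal RNA-binding proteins with KH domains that stabilise their target mRNAs. The comparison of siMETTL3 with siControl addresses what happens to the transcripts of these proteins when the writer is depleted.

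The genes that bind or erase the mark are themselves transcribed into mRNAs that can hold the consensus of the writer, of which GGACT is a common form (GGACU in RNA). GGACT was searched on the transcript strand of the coding sequence and 3′ UTR of the canonical transcript of each gene (GENCODE release 44). At least 1 match was found in all 10 members, as in 89.8% of the 14591 tested genes that have such a transcript. The density was highest in ALKBH5, with 1.46 matches per kilobase, and lowest in YTHDF1, with 0.338 per kilobase, against a median of 0.907 over those genes. The test described further on was passed by 6 members. Among these, the density per kilobase was below that median in FTO (0.433), YTHDF1, YTHDF3 (0.413), YTHDC1 (0.509) and YTHDC2 (0.655). It was above the median in IGF2BP1 (1.07). Of the members that did not pass, IGF2BP3 (0.514) lay below the median, and ALKBH5, YTHDF2 (1.17) and IGF2BP2 (1.19) lay above it. A relation between density and the calls was not tested. The match closest to the stop codon is shown for 4 of these 6, without FTO and YTHDF3. Each is written 5′ to 3′ on the transcript strand with GGACT in capitals, and positions are those of GRCh38.
YTHDF1, minus strand, chr20:63202558-63202582, coding sequence: agtcccccgtGGACTacggcaccag
YTHDC1, minus strand, chr4:68312962-68312986, 3′ UTR: cttcataaatGGACTtttaaccctc
YTHDC2, plus strand, chr5:113592046-113592070, coding sequence: gggctctgctGGACTaggaggagta
IGF2BP1, plus strand, chr17:49050417-49050441, 3′ UTR: gttccatggaGGACTtgagtggccc
The matched A lay 308 bases before the end of the stop codon in YTHDF1 and 199 bases before it in YTHDC2. It lay 988 bases after the stop codon in IGF2BP1 and 1128 bases after it in YTHDC1. A match is a description of the sequence, and methylation was not measured in these tables.

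Libraries held between 15430000 counts (siControl replicate 3) and 21565013 counts. The siControl replicate 3 library, the shallowest, also lay farthest out on the leading principal component, which separated the groups. Levels are given as CPM, which are counts scaled to a common library size after TMM normalisation. METTL3, the targeted gene, was measured at 53.5, 52.8 and 56.2 CPM in siControl and at 33, 31.8 and 34.3 CPM in siMETTL3. It fell by 39.0%, a log2 fold change of -0.71 with a standard error (SE) of 0.0696 (edgeR quasi-likelihood test, adjusted p, called FDR here, 4.68e-06). TOX4, on the other strand, shares 1043 bases with METTL3. The 9 neuroblastoma markers summed to between 5706 and 6147 CPM in siControl and between 8614 and 9011 CPM in siMETTL3. None of them was at 0. MYCN made up 3021 ± 134 and 4638 ± 169 CPM (SD, n = 3) of these sums. The 5 immune markers stayed under 3 CPM in sum in every library, and the endothelial and epithelial markers under 11 CPM. The 6 stromal markers summed to between 85.3 and 99.2 CPM in siControl and between 87.2 and 93.8 CPM in siMETTL3, most of it PDGFRB, at 84.8 CPM in siControl and 82.8 CPM in siMETTL3. The part of the neuroblastoma markers' difference in the values of the members was not tested. In these bulk samples, fewer cells of a type and less RNA per cell cannot be told apart.

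Of the 10 members, 4 rose in siMETTL3 (FTO, YTHDF1, YTHDF3 and IGF2BP1) and 2 fell (YTHDC1 and YTHDC2) at an FDR under 0.05. Of all 15311 tested genes, 37.8% passed the same test, 18.6% higher and 19.2% lower. The 6 of 10 members called are a higher share than that background, in a short list. The members were chosen with earlier results of these data known, so this share is a description and not a test. All 6 changes were small: YTHDC2 fell by 12.8%, the furthest of the lower ones, and YTHDF1 rose by 18.2%, the furthest of the higher ones. The median absolute log2 fold change was 0.19 over the members and 0.21 over all tested genes. The CPM ranges of the groups did not overlap for 9 of the 10 members, against 49.9% of tested genes (24.8% higher and 25.1% lower).

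**Figure D1:**
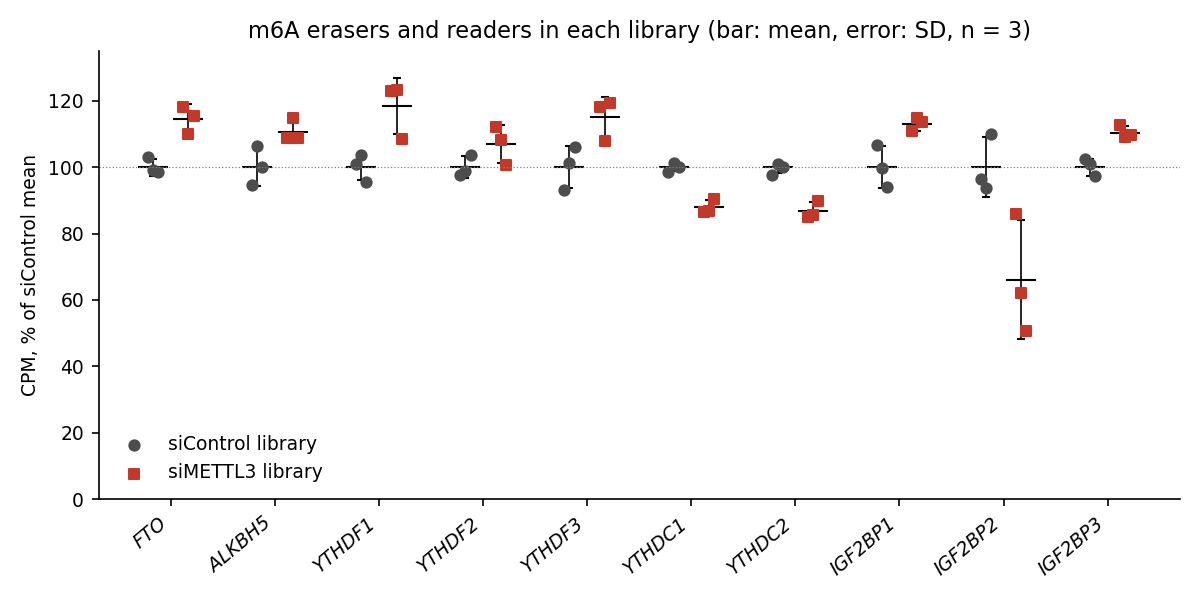
CPM of each member in each library as a percentage of its siControl mean (y axis); circles are siControl libraries, squares siMETTL3 libraries, and the bars show mean and SD over 3 libraries. The siMETTL3 squares of FTO, YTHDF1, YTHDF3 and IGF2BP1 lie above their circles, those of YTHDC1 and YTHDC2 lie below, and the widest spread is that of IGF2BP2, which rests on 10 to 20 counts per library.

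The members were not equally abundant. Counts cover the whole gene span, introns included, so levels were compared per kilobase of span and, as an alternative, per kilobase of the canonical transcript. Per kilobase of span, IGF2BP1 stood highest, at 8.26 ± 0.521 CPM per kilobase in siControl (SD, n = 3), followed by ALKBH5 at 4.22 ± 0.240. YTHDF1, YTHDF3, YTHDF2, YTHDC1 and IGF2BP3 followed in that order over all 6 libraries, with siControl means between 2.12 and 2.44 CPM per kilobase. The ranges of neighbours among these 5 overlapped over all 6 libraries, so their pooled order is not resolved. Those ranges include the difference between the groups. YTHDC1 had the highest mean of the 5 in siControl, at 2.44 ± 0.0322, and IGF2BP3 the lowest, at 2.12 ± 0.0540. In siMETTL3 YTHDC1 was lowest, at 2.15 ± 0.0534, below IGF2BP3 at 2.34 ± 0.0402. YTHDC2 came next at 1.23 ± 0.0220, then FTO at 0.555 ± 0.0142, and IGF2BP2 was last at 0.00531 ± 4.76e-04. FTO has the longest span of the members, 456821 bases for a canonical transcript of 11573, and IGF2BP3 has 160283 bases for 4274. Per kilobase of canonical transcript the order was therefore different: IGF2BP3 came highest at 79.4 ± 2.03 CPM per kilobase in siControl and IGF2BP1 next at 55.2 ± 3.48, followed by ALKBH5 at 35.9 ± 2.04. FTO then ranked in the middle of the list, at 21.9 ± 0.562. ALKBH5 stood among the upper 3 members and IGF2BP2 at the bottom on both scales. IGF2BP2 lay at the 2.59th percentile of tested genes per kilobase of transcript, whereas IGF2BP3 lay at the 95.6th and IGF2BP1 at the 92.9th.

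**Figure D2:**
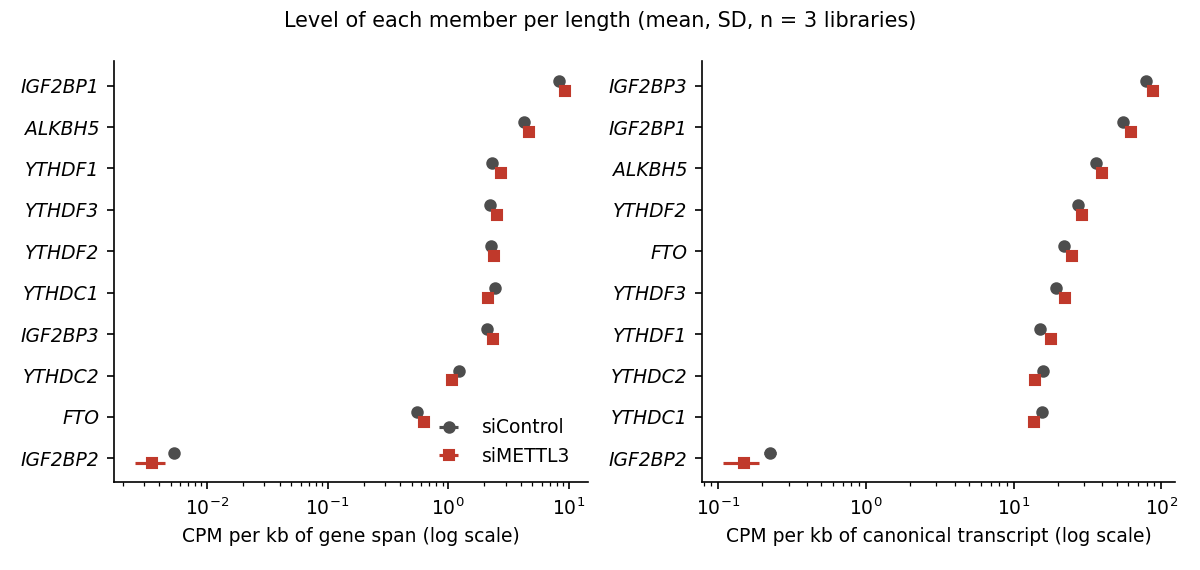
CPM per kilobase of gene span (left) and per kilobase of canonical transcript (right) for each member on log axes; circles are siControl means, squares siMETTL3 means, and bars the SD over 3 libraries. IGF2BP1 leads on the left and IGF2BP3 on the right, and IGF2BP2 is far below the other members in both panels.

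Both erasers were measured above the control level. FTO (chromosome 16, 53701692 to 54158512, plus strand, GRCh38) demethylates m6A and the related mark next to the cap. It was measured at 261, 251 and 249 CPM in siControl and at 299, 278 and 292 CPM in siMETTL3, so the groups did not overlap. FTO rose by a log2 fold change of 0.19 (SE 0.0552, 95% interval 0.075 to 0.31, edgeR FDR 0.0134). The first 2247 bases of its span overlap RPGRIP1L on the other strand, a ciliary gene at 42.1 ± 3.47 CPM in siControl and 38.2 ± 3.20 CPM in siMETTL3 (SD, n = 3). This overlap holds no exon of the canonical FTO transcript. ALKBH5 (chromosome 17, 18183078 to 18209954, plus strand), a nuclear m6A demethylase, was measured at 107, 120.0 and 113 CPM in siControl and at 123, 129.6 and 123 CPM in siMETTL3. The groups were apart here too, but the log2 fold change of 0.14 (95% interval 0.011 to 0.27) was not past the threshold (edgeR FDR 0.0825). With METTL3 itself lower, the libraries held 4.68 ± 0.235 counts of FTO per count of METTL3 in siControl and 8.78 ± 0.282 in siMETTL3 (SD, n = 3). For ALKBH5 the same ratio went from 2.1 ± 0.152 to 3.79 ± 0.258. These 2 ratios were chosen after their values were seen, and their denominator is the targeted gene.

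The YTHDF transcripts, which encode the cytoplasmic readers, were all measured above control, and 2 of the 3 rose. YTHDF1 (chromosome 20, 63195429 to 63216139, minus strand), linked to translation of marked mRNAs, was measured at 48.6, 49.9 and 46.1 CPM in siControl and at 59.2, 59.4 and 52.3 CPM in siMETTL3. The siMETTL3 replicate 3 library was closer to the controls than the other two, and the groups did not overlap. YTHDF1 rose by a log2 fold change of 0.24 (SE 0.0716, edgeR FDR 0.0172). YTHDF3 (chromosome 8, 63168553 to 63212786, plus strand), which acts with its paralogs, was measured at 91.4, 99.5 and 104 CPM in siControl and at 116, 106 and 117 CPM in siMETTL3. It rose by a log2 fold change of 0.20 (SE 0.0647, edgeR FDR 0.0229), and siMETTL3 replicate 2 lay just above the highest control. YTHDF2 (chromosome 1, 28736621 to 28769775, plus strand), the paralog that recruits the CCR4-NOT deadenylase to marked mRNAs, was measured at 73.3, 74.3 and 77.9 CPM in siControl and at 84.2, 81.2 and 75.6 CPM in siMETTL3. It was the only member whose groups overlapped. Its log2 fold change was 0.10 with a 95% interval from -0.037 to 0.23 (edgeR FDR 0.245).

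The YTHDC pair went the other way. YTHDC1 (chromosome 4, 68310387 to 68350089, minus strand), the nuclear reader, was measured at 95.7, 98.2 and 97.1 CPM in siControl and at 83.8, 84.1 and 87.6 CPM in siMETTL3. YTHDC2 (chromosome 5, 113513694 to 113595285, plus strand), the helicase, was measured at 98.5, 102 and 101 CPM in siControl and at 85.9, 86.3 and 90.8 CPM in siMETTL3. The groups were apart in both genes, and the spread within a group was at most 2.75 CPM (SD, n = 3). YTHDC1 fell by 0.19 on the log2 scale (SE 0.0560, edgeR FDR 0.0172) and YTHDC2 fell by 0.20 (SE 0.0567, edgeR FDR 0.0138). Although they lie on different chromosomes, their profiles over the 6 libraries were nearly the same, with a Pearson correlation of log2 CPM of 0.998. Each was among the 3 genes most similar to the other, out of the genes averaging 3 or more in log2 CPM. This correlation is a description over 6 libraries that share the same group difference.

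**Figure D3:**
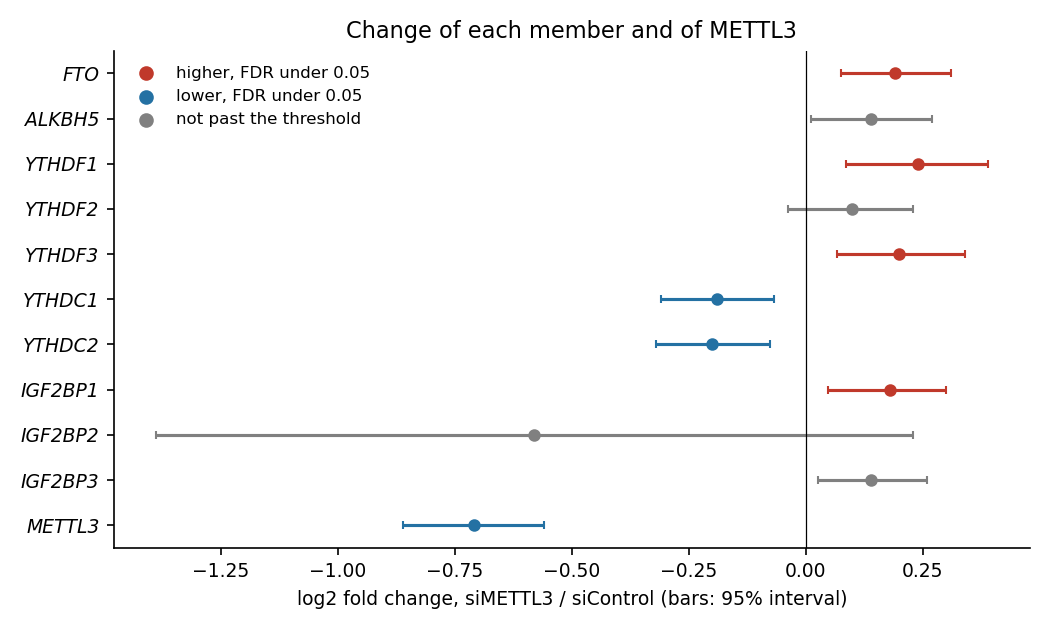
Log2 fold change of siMETTL3 against siControl for the 10 members and METTL3, with 95% intervals from the edgeR quasi-likelihood fit; red is higher and blue lower at an FDR under 0.05, grey is not past the threshold. YTHDC1 and YTHDC2 lie at -0.19 and -0.20, FTO, YTHDF1, YTHDF3 and IGF2BP1 between 0.18 and 0.24, and the interval of IGF2BP2 runs from -1.39 to 0.23.

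Among the IGF2BP readers, IGF2BP1 and IGF2BP3 made up almost all transcripts. Per kilobase of canonical transcript, IGF2BP3 held 58.9% ± 0.937 and IGF2BP1 40.9% ± 0.953 of the family sum in siControl (SD, n = 3), and IGF2BP2 held 0.167% ± 0.0213. Per kilobase of span, IGF2BP1 stood above IGF2BP3 instead, at 8.26 against 2.12 CPM per kilobase in siControl. IGF2BP1 (chromosome 17, 48997385 to 49056145, plus strand), which binds and stabilises mRNAs such as that of MYC, was measured at 517, 484 and 456 CPM in siControl and at 537, 557 and 550.4 CPM in siMETTL3. It rose by a log2 fold change of 0.18 (SE 0.0595, edgeR FDR 0.0318), with the groups apart and the controls more spread than the siMETTL3 libraries. IGF2BP3 (chromosome 7, 23310209 to 23470491, minus strand), another oncofetal paralog, was measured at 347, 342 and 329.8 CPM in siControl and at 382, 369.5 and 372 CPM in siMETTL3. The groups were apart, and the log2 fold change of 0.14 (95% interval 0.027 to 0.26) missed the threshold by a narrow margin (edgeR FDR 0.0502). The last 1521 bases of IGF2BP3, all of them exonic in its canonical transcript, overlap MALSU1 on the other strand. MALSU1, a mitochondrial ribosome assembly gene, fell from 92.8 ± 2.35 to 70.8 ± 4.92 CPM (edgeR FDR 3.83e-04, log2 fold change -0.39). The counts of both genes are unstranded, and the part of the overlap in either value was not tested. IGF2BP2 (chromosome 3, 185643739 to 185825056, minus strand) had 20, 18 and 16 counts in siControl and 17, 13 and 10 in siMETTL3. At this depth its log2 fold change of -0.58 has a 95% interval from -1.39 to 0.23, and no difference was detectable (edgeR FDR 0.246).

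MYCN, which binds the E-box CACGTG as a partner of MAX, was higher in siMETTL3 (log2 fold change 0.62, edgeR FDR 5.17e-06). The 250 bases before the annotated starts of the members were therefore read from RefSeq (GRCh38.p14), which gave a promoter for 8 of the 10 members. There was none for IGF2BP1 and YTHDF3, which are among the members called higher. CACGTG is its own reverse complement, so a match counts for both strands. It was found in the promoters of IGF2BP3, which was not past the threshold, and YTHDF1, and in none of the other matched members. Of 35116 RefSeq promoters of that length, 6.34% held at least 1 match and 0.535% held 2 or more. The promoters of the 2 members with a match and that of FTO, which has none, are shown because all 3 are among the members described above and differ in this motif. They are written 5′ to 3′ on the gene's strand with CACGTG in capitals.
IGF2BP3, minus strand, chr7:23470492-23470741: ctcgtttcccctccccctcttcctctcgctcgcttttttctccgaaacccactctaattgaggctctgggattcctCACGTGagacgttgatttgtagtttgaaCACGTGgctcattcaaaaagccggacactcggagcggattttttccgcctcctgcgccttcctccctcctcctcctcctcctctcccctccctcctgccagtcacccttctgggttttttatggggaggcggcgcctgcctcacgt
YTHDF1, minus strand, chr20:63216132-63216381: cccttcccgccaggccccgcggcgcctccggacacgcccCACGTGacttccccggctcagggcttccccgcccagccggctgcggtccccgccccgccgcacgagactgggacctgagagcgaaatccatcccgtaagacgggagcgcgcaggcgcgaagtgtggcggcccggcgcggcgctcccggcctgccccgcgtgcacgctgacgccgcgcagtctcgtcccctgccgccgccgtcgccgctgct
FTO, plus strand, chr16:53703906-53704155: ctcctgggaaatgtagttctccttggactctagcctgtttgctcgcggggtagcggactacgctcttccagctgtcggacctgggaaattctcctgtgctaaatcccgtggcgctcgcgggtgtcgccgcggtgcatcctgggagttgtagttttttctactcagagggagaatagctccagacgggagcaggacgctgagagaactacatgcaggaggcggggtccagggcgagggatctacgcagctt
The first bases of the matches in IGF2BP3 lie 174 and 146 bases before the start, and that in YTHDF1 lies 211 bases before it. A match is a description of the letters, not a bound site, and binding was not measured in these tables.

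Ratios between members of a family do not depend on the scaling of the libraries. Of the 6 ratios compared, 2 had groups that did not overlap. For YTHDF1 to YTHDF2 the log2 count ratio went from -0.64 ± 0.10 to -0.50 ± 0.042 (SD, n = 3), with the groups apart (exact two-sided permutation test, p = 0.10, 0.30 adjusted over the 6 ratios). For IGF2BP2 to IGF2BP3 it went from -8.42 ± 0.16 to -9.18 ± 0.35, also apart (exact permutation p = 0.10, adjusted 0.30), on the few IGF2BP2 counts above. An exact test of 3 against 3 libraries cannot go below 0.10, so none of these ratios could pass. The groups overlapped for FTO to ALKBH5 (difference in log2 ratio 0.052), YTHDF3 to YTHDF2 (0.11) and IGF2BP1 to IGF2BP3 (0.036), as they did for YTHDC1 to YTHDC2 (0.011). The YTHDC1 to YTHDC2 ratio was the tightest, at -0.051 ± 0.0093 in siControl and -0.041 ± 0.0092 in siMETTL3 (exact permutation p = 0.20, adjusted 0.40).

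The 6 calls rest on changes of under 20% and are sensitive to single libraries. No member was past the threshold without siMETTL3 replicate 1, where 27.2% of all genes were called instead of 37.8%. FTO was then at an FDR of 0.0878, YTHDF1 at 0.0895, YTHDF3 at 0.10, IGF2BP1 at 0.0838, YTHDC1 at 0.0801 and YTHDC2 at 0.0720. Without siControl replicate 2, FTO (0.0634), YTHDF3 (0.0629), IGF2BP1 (0.108), YTHDC1 (0.0705) and YTHDC2 (0.0606) were not past it. The same was so without siMETTL3 replicate 2 for YTHDF1 (0.0882), IGF2BP1 (0.127), YTHDC1 (0.0624) and YTHDC2 (0.0564), and without siMETTL3 replicate 3 for FTO (0.0590), YTHDF3 (0.102) and IGF2BP1 (0.106). Without siControl replicate 1 only YTHDF3 missed it (0.0600), and without siControl replicate 3 all 6 stayed past it. With an offset for intron length, the calls of FTO (edgeR FDR 0.0551), YTHDF3 (0.0556) and IGF2BP1 (0.0736) were not made. With one for GC content and transcript length, that of IGF2BP1 (0.171) was not, and with the replicate block added, neither that of IGF2BP1 (0.203) nor that of FTO (0.0602) was. YTHDF1, YTHDC1 and YTHDC2 were past the threshold in all 13 alternatives that kept the 6 libraries. ALKBH5 passed it in 1 of those (total count scaling, FDR 0.0465) and IGF2BP3 in 8. No member changed its direction in any alternative.

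**Figure D4:**
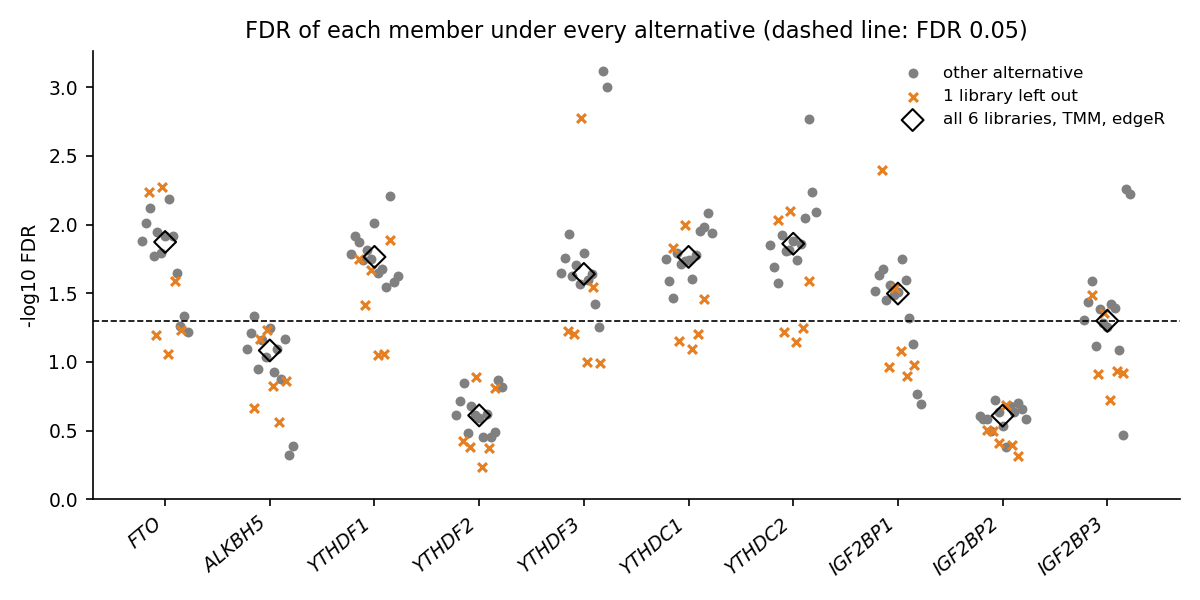
Significance (-log10 of the FDR, y axis) of each member with all 6 libraries and TMM scaling (diamonds), with 1 library left out (crosses) and under the other alternatives (grey points); the dashed line marks an FDR of 0.05. Crosses of all 6 called members fall below the line, while YTHDF1, YTHDC1 and YTHDC2 keep every grey point above it.

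The other genes of the pathway were described by 10 short lists of 67 genes in all, 65 of them tested. Of these, 10 rose and 17 fell, numbers to be read against the 18.6% of all tested genes that were called higher and the 19.2% called lower. Together their share is near the 37.8% of genes called in all. The median over the listed genes was -0.045 on the log2 scale, against -0.0021 over all tested genes. In the writer complex without METTL3, 2 of 7 genes rose and 1 fell. CBLL1, the E3 ligase-like subunit also called HAKAI, went from 10.8 ± 0.772 to 14.8 ± 1.15 CPM (SD, n = 3; log2 fold change 0.45, edgeR FDR 0.00663). The scaffold VIRMA rose (log2 fold change 0.23, FDR 0.0125; 0.0805 without siMETTL3 replicate 3). METTL14, which binds RNA together with METTL3, fell by 0.24 on the log2 scale (FDR 0.0215; 0.0981 without siMETTL3 replicate 2 and 0.0635 without siMETTL3 replicate 3). None of the 5 other m6A methyltransferase genes passed the test.

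In the list of YTHDC1's nuclear partners, all 5 genes fell, as YTHDC1 did. SRSF7, a splicing and export adaptor, was measured at 223, 239 and 250.5 CPM in siControl and at 164, 168 and 176 CPM in siMETTL3 (log2 fold change -0.49, edgeR FDR 3.34e-05). NXF1, the mRNA export receptor, went from 50.8 ± 3.43 to 40.2 ± 0.650 CPM (SD, n = 3; log2 fold change -0.34, edgeR FDR 0.00216). SRSF10, a splicing factor, fell by 0.26 on the log2 scale (edgeR FDR 0.00218), and SRSF3 and CPSF6 made up the rest. The median log2 fold change of the list was -0.26, and all 5 were called lower in every alternative run, each left-out library included. Over all tested genes, 19.2% were called lower. The list was written with earlier results of these data known, so its 5 of 5 is a description and not a test.

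Of 9 decay partners of the YTHDF proteins, the cytoplasmic readers, 1 rose, 1 fell and 7 were not past the threshold. Over all tested genes, 18.6% were called higher and 19.2% lower. The deadenylase subunit CNOT6 went from 68.6 ± 6.79 to 96.3 ± 4.41 CPM (edgeR FDR 1.73e-04, log2 fold change 0.49). CNOT1, the scaffold of the same CCR4-NOT complex that YTHDF2 contacts, went from 510.0 ± 27.8 to 434 ± 11.6 CPM (edgeR FDR 0.00646, log2 fold change -0.23). XRN1, the exonuclease that binds YTHDC2, fell by 0.26 on the log2 scale (edgeR FDR 0.00523). MEIOC, the meiotic partner of YTHDC2, was at 60.2 ± 0.925 CPM in siControl and 59.5 ± 1.73 CPM in siMETTL3, and RBM46 was too low to test. Of the IGF2BP co-factors, the stabilising protein ELAVL1 rose (log2 fold change 0.25, edgeR FDR 0.00906), and MATR3 and PABPC1 were not past the threshold.

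The 15 reported target mRNAs of the IGF2BP proteins had calls in both directions: of 14 tested, 3 rose and 4 fell, beside 18.6% of all tested genes called higher and 19.2% called lower. IGF2, the growth factor for whose mRNA the family is named, went from 805 ± 35.3 to 1440.4 ± 64.4 CPM (edgeR FDR 2.97e-07, log2 fold change 0.84), with part of its span shared with INS-IGF2. MYCN rose as given above. CD44, an adhesion receptor, was measured at 18.4, 18.8 and 23.0 CPM in siControl and at 8.11, 7.90 and 9.30 CPM in siMETTL3 (log2 fold change -1.24, edgeR FDR 5.13e-06). MYC, the target named most often with IGF2BP1, had between 0 and 6 counts in a library and was not tested.

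Other m6A-associated binding proteins and relatives of the erasers also had calls in both directions. Their counts are to be read against the 18.6% of all tested genes called higher and the 19.2% called lower. Of 9 indirect readers, 1 rose and 3 fell. FXR1 rose (log2 fold change 0.28, edgeR FDR 0.0010), while its paralog FXR2 fell by 0.29 on the log2 scale (FDR 0.0107; 0.0748 without siControl replicate 2 and 0.0698 without siMETTL3 replicate 1). LRPPRC fell by 0.21 (edgeR FDR 0.0173; 0.0967 without siControl replicate 2, 0.0648 without siMETTL3 replicate 1 and 0.0999 without siMETTL3 replicate 2). Of the 7 AlkB paralogs of ALKBH5, 1 rose and 1 fell. ALKBH3 rose (log2 fold change 0.26, edgeR FDR 0.0244), with an FDR of 0.0629 without siControl replicate 1, and of 0.103, 0.0506 and 0.0632 without siMETTL3 replicates 1, 2 and 3. ALKBH7 fell by 0.32 (FDR 0.0128; 0.0523 without siControl replicate 2, 0.0506 without siMETTL3 replicate 2 and 0.160 with the offset for intron length). On chromosome 16, the homeobox genes IRX3, IRX5 and IRX6 follow FTO in that order. IRX3, starting at 54283304, had a log2 fold change of -0.34 that was not past the threshold (edgeR FDR 0.0552). IRX6, the farthest from FTO and starting at 55323760, went from 4.84 ± 0.637 to 9.21 ± 0.645 CPM (edgeR FDR 2.62e-04, log2 fold change 0.94). IRX5 went from 6.21 ± 0.779 to 4.35 ± 0.605 CPM (log2 fold change -0.51, FDR 0.0323). That call was not made with DESeq2 (0.0560), with the offset for intron length (0.114), without siControl replicate 2 (0.130) or without siMETTL3 replicate 1 (0.0567), 2 (0.0583) or 3 (0.133).

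**Figure D5:**
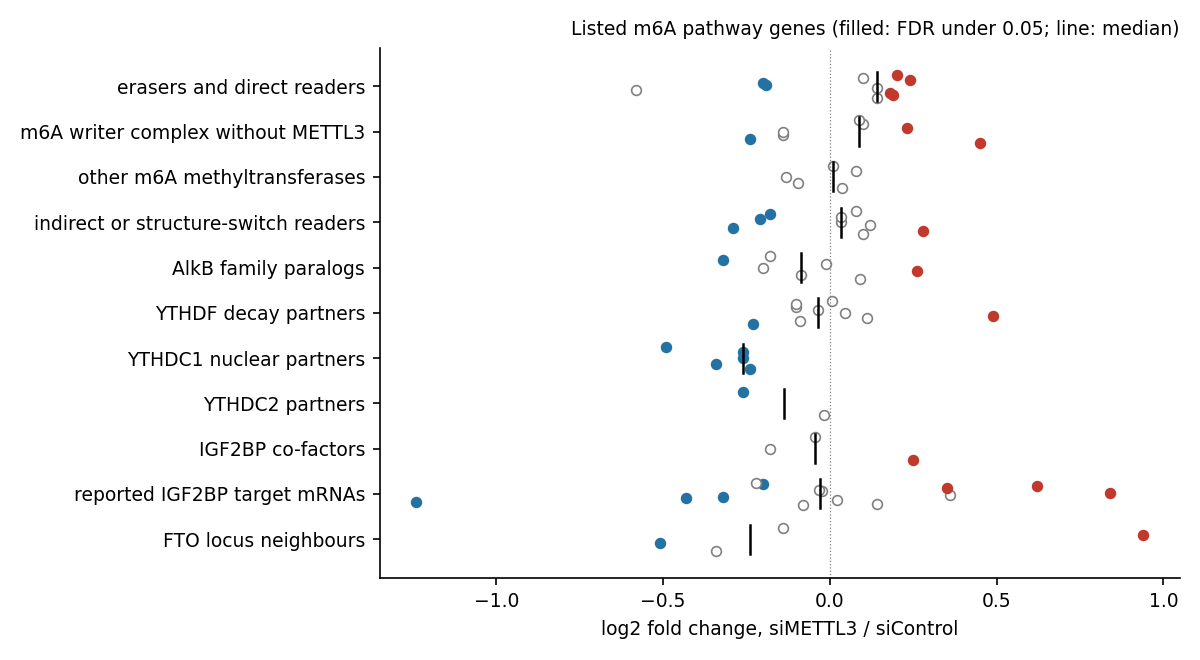
Log2 fold change of siMETTL3 against siControl (x axis) for the members (top row) and the tested genes of each list; red is higher and blue lower at an FDR under 0.05, open points are not past the threshold, and black lines are medians. All 5 YTHDC1 nuclear partners are blue, with a median of -0.26, and the reported IGF2BP targets spread from -1.24 (CD44) to 0.84 (IGF2).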

How the data were processed

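The authors deposited raw read counts per gene, 1 table per library. Per the file headers, the counts were made with featureCounts v1.5.3 with an annotation from GENCODE release 33 limited by its name to protein genes, over whole gene spans, assigning a read to every gene it overlaps, without a strand or fragment option and without the option to count multi-mapping reads. Per the submitters' processing notes, FastQC 0.11.5, Trimmomatic 0.36, HISAT2 2.1.0 and GRCh38 were used. All 10 member spans overlapped their GENCODE release 44 namesakes. Libraries of a group differed beyond sampling noise (chi-square per degree of freedom 3.11 to 16.9).

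Genes were filtered with filterByExpr (15311 kept), scaled by TMM (a trimmed mean of M-values) and tested with edgeR 4.0.16 (R 4.3.3; glmQLFit and glmQLFTest, robust, all 6 libraries, no covariate), with Benjamini-Hochberg FDR over all tested genes and a threshold of 0.05. An SE is the absolute log2 fold change over the square root of F. CPM uses the TMM-scaled library total. Ratios used log2 counts with 0.5 added. Members and lists were chosen with earlier results of these data known. Named genes are the members, METTL3, genes overlapping a member, up to 3 genes with the smallest FDR per list and, per called member, the 3 genes with the most similar profile. TOX4, ISL1, PDGFRB, SRSF3, CPSF6, MATR3, PABPC1, MEIOC, RBM46 and MYC were added after their values were seen. A few items under these rules are not reported here. The promoter background leaves out chromosome 8. Alternatives: other scalings and filters, DESeq2 1.42.0, limma-voom (limma 3.58.1), non-robust dispersions and a replicate block. Further ones were each library left out, non-overlapping genes and an intron length offset. The GC and length offsets were added later. In the fit of non-overlapping genes, the members and METTL3 were kept whatever their overlap. It therefore does not test the overlaps of FTO, IGF2BP3 and METTL3.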

Additional observations from a re-analysis of the deposited data

How the results depend on the processing

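Among the alternatives with all 6 libraries, the number of members called higher was 1 instead of 4 with the offset for intron length, and between 3 and 6 otherwise; the number called lower was 2 in each of them. With 1 library left out at a time, the members called higher went from 0 to 5 and those called lower from 0 to 2. The listed pathway genes called higher went from 8 to 14 and those called lower from 11 to 21. Leaving out a library leaves fewer samples, and the genes called overall then went from 4210 to 6394, against 5786. The order of the members by level per kilobase depends on the length used. Its Spearman correlation with the order per kilobase of span was 0.491 per kilobase of canonical transcript. The correlation was 0.915 in the siControl libraries alone, where YTHDC1 stood above YTHDF1, YTHDF2 and YTHDF3 rather than below them. No sign changed for the 10 members or the 40 other named genes. Of the members' 130 values under the other alternatives, 6 lost the call and 9 gained it; of 60 values with a library left out, 19 lost it and 2 gained it. For the other named genes, 10 of 506 and 39 of 240 lost it. The scaling by total counts moved the median log2 fold change of all genes to 0.021. Each within-family ratio kept its sign.

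The labels do not say that a replicate number marks a shared culture or day. Deviations from the group means correlated at 0.0401 to 0.0671 for equal numbers and at -0.0642 to 0.0263 for unequal ones. Every library thus correlated best with its own number, a hint from the data rather than the design, but weakly, and the libraries were treated as unpaired. With the replicate block, 6166 genes were called, 5733 of them among the 5786, and the same numbers of members were called (4 higher, 2 lower).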

Other observations

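For each called member, tested genes with the most similar log2 CPM over the 6 libraries (genes averaging 3 or more in log2 CPM) were listed as a description. The profiles nearest to YTHDC1 were those of CDCA7 (Pearson correlation 0.998, log2 fold change -0.35), YTHDC2 and RMND5A (0.998, log2 fold change -0.46), a subunit of an E3 ligase complex. Nearest to YTHDC2 were PSMC6 (0.999, log2 fold change -0.34), an ATPase of the proteasome, YTHDC1 and TSPYL4 (0.998, log2 fold change -0.59). Among the genes nearest to FTO were ATL2 (0.994) and FBXO28 (0.993). IGF2BP1 was followed by ACOT11, PBX4 and TEX22, YTHDF3 by THRB, RFK and LAMTOR1, and YTHDF1 by C16orf92, BAD and TLCD3B. The profiles share the group difference, and the libraries are few.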
